A study of Mus musculus with 4 samples.

Results

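Open chromatin was compared directly between Sod2-/- dermal fibroblasts and dermal fibroblasts treated with rotenone, a genetic and a chemical disturbance of mitochondria. In each of these libraries the 30000 peaks with the highest −log10 p in the authors' peak list were called strong, ties being settled by fold enrichment. A strong knockout peak was called knockout-specific when it overlapped none of the 60000 best ranked rotenone peaks by at least 1 bp, and a strong rotenone peak was called rotenone-specific by the same rule against the knockout list. There were 955 knockout-specific regions (3.18% of 30000) and 1063 rotenone-specific regions (3.54% of 30000), 2018 in all.

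The data were ATAC-seq peak lists of 4 libraries from C57BL/6 mice, 1 library per group. The groups were Sod2+/+ control cells, cells of a conditional Sod2 knockout (Sod2-/-), Sod2+/+ cells given vehicle and Sod2+/+ cells given rotenone, labelled as 250 µM. All 4 titles carry 100 days, and the sources used here do not say what the days count, which vehicle was used, which Cre drove the deletion, or how many mice gave cells. With 1 library per group no difference has a replicate check and no test was possible. The knockout and rotenone libraries differ in genotype, in exposure to rotenone and its vehicle, and in being separate libraries, and these cannot be told apart in the direct comparison. The Sod2+/+ control and vehicle libraries therefore serve as references: for each region it was recorded whether it lay among the 60000 best ranked peaks of either.

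ATAC-seq uses the Tn5 transposase to insert adapters into accessible DNA, so that peaks mark promoters, enhancers and other open chromatin. Sod2 encodes the manganese superoxide dismutase of the mitochondrial matrix, which turns superoxide from the respiratory chain into hydrogen peroxide. Rotenone blocks electron transfer from complex I to ubiquinone, which lowers respiration and can raise superoxide formation at complex I. In fibroblasts, mitochondrial dysfunction is known for its links to stress signalling, altered matrix production and senescence.

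The knockout list held 585165 peaks and the rotenone list 347438, next to 433013 for control and 340240 for vehicle. They give no read counts, so depth is unknown. The median fold enrichment of strong peaks, the authors' own value per peak over local background, was 5.49 in the knockout and 5.99 in rotenone, against 6.78 in control and 7.13 in vehicle. Folds and ranks below describe where a region stands within its own list. The targeted gene, Sod2, kept a strong peak in its body or within 1000 bp of it in every library, with a fold of 6.67 in the knockout and 7.29 in rotenone, and 7.04 in control and 7.54 in vehicle. The position of the deleted exons is not given in the sources used here, so this peak does not check the label. Of 26 fibroblast identity genes, 5 in the knockout, 7 in rotenone, 10 in control and 8 in vehicle had a strong peak at a gene end, while none of 7 pericyte genes did in any library and at most 1 of 10 myeloid genes did. Keratinocyte, endothelial, lymphocyte, adipocyte, melanocyte and Schwann, and skeletal muscle genes had between 0 and 5 such genes per list and library, so peaks at gene ends alone did not single out the labelled cell type.

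The promoters below give a view of the sequences involved; they were chosen after their values were seen, from the 14 knockout-specific and 13 rotenone-specific genes whose 250 bases before the start overlap no annotated gene. Sequences are from RefSeq GRCm38.p6, 5′ to 3′ on the gene's strand, and capitals mark the bases inside the specific peak. The first 3 are knockout-specific. Foxo3, a stress-responsive forkhead transcription factor, lies on the minus strand at chr10:42276696-42276945. Ngrn, needed for mitochondrial ribosome assembly, lies on the plus strand at chr7:80260965-80261214. Ciao3, of the cytosolic iron-sulphur cluster assembly machinery, lies on the plus strand at chr17:25773526-25773775.
Foxo3: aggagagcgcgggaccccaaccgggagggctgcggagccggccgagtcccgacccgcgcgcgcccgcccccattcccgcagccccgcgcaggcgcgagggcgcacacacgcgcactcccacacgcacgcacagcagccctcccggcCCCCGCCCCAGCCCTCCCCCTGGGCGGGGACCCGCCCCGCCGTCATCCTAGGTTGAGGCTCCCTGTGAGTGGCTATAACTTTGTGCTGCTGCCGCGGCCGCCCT
Ngrn: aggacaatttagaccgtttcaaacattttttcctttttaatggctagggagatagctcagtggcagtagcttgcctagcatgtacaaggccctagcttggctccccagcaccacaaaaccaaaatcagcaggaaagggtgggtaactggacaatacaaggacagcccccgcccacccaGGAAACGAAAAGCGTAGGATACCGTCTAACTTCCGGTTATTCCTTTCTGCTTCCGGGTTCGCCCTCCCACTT
Ciao3: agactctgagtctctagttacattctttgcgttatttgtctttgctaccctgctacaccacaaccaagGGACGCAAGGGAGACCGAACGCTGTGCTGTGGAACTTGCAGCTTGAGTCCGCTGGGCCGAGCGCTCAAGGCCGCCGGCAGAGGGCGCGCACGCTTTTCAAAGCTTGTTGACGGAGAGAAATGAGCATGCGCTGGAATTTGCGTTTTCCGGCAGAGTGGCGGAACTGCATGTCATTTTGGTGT
The Foxo3 peak had a fold of 4.16 in the knockout and 3.15 in rotenone, and 4.41 in control and 5.45 in vehicle. At Ngrn the fold was 4.59 in the knockout and 3.45 in rotenone, and 3.96 in control and 4.36 in vehicle. Both were thus among the 60000 best ranked peaks of every library except rotenone. Ciao3 differed from them: its fold was 4.34 in the knockout and 3.42 in rotenone, and 2.84 in control and 3.44 in vehicle, and only the knockout peak was among the 60000 best ranked.

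The next 3 are rotenone-specific. Nubpl, which helps to insert iron-sulphur clusters into complex I, the target of rotenone, lies on the plus strand at chr12:52097496-52097745. Psmb5, a catalytic subunit of the proteasome, lies on the minus strand at chr14:54617996-54618245. Gstm2, a glutathione S-transferase, lies on the minus strand at chr3:107986421-107986670.
Nubpl: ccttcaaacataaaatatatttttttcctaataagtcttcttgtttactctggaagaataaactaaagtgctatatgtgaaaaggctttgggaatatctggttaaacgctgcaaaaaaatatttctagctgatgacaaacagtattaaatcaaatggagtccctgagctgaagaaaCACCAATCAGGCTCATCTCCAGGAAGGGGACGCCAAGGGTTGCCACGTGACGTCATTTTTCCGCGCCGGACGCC
Psmb5: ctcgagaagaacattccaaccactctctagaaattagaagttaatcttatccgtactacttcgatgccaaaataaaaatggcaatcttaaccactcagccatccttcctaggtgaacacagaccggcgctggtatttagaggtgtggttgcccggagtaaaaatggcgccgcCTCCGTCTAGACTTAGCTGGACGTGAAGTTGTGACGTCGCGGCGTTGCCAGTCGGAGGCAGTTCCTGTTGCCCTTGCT
Gstm2: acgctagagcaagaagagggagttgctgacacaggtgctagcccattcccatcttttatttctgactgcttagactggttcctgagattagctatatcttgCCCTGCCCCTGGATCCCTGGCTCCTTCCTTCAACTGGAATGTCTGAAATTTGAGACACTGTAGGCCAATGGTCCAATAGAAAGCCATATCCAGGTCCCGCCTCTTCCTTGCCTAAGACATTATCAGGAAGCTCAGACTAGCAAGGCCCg
The Nubpl peak had a fold of 2.84 in the knockout and 4.61 in rotenone, and 3.79 in control and 4.93 in vehicle. At Psmb5 the fold was 2.82 in the knockout and 4.99 in rotenone, and 4.95 in control and 5.15 in vehicle. Only the knockout lacked these peaks among its 60000 best ranked. Gstm2 had a fold of 3.09 in the knockout and 4.72 in rotenone, and 3.44 in control and 4.48 in vehicle, and its region was among the 60000 best ranked in vehicle and rotenone alone.

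By this rule knockout and rotenone differed from each other in fewer regions than either differed from its own reference. In the knockout 1600 strong peaks (5.33%) overlapped none of the 60000 best ranked control peaks, called missing from control here, and 2042 strong rotenone peaks (6.81%) from the vehicle list. In the reverse direction 2027 strong control peaks (6.76%) were missing from the knockout list and 2413 strong vehicle peaks (8.04%) from the rotenone list. The pairs that crossed the references gave 1875 knockout regions missing from vehicle (6.25%), 1881 rotenone regions missing from control (6.27%), 2363 vehicle regions missing from the knockout (7.88%) and 2201 control regions missing from rotenone (7.34%). Control and vehicle were closer to each other, with 254 control regions (0.847%) and 309 vehicle regions (1.03%). The 95% Wilson intervals were 2.99% to 3.39% for knockout-specific and 3.34% to 3.76% for rotenone-specific shares; all such intervals here cover counting error only. The order changed when a peak of any strength in the second list counted: 73 strong knockout peaks then had no control peak, fewer than the 82 without a rotenone peak and the 80 strong rotenone peaks without a knockout peak, while 232 strong rotenone peaks had no vehicle peak. These pairs share libraries, so their shares are not independent of one another. Strong knockout and rotenone peaks also had lower median folds, 5.49 and 5.99, against 6.78 in control and 7.13 in vehicle. Their median widths were 293 and 277 bp, against 376 bp in control and 349 bp in vehicle. Whether these differences bear on the order of the pairs was not tested.

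**Figure D1:**
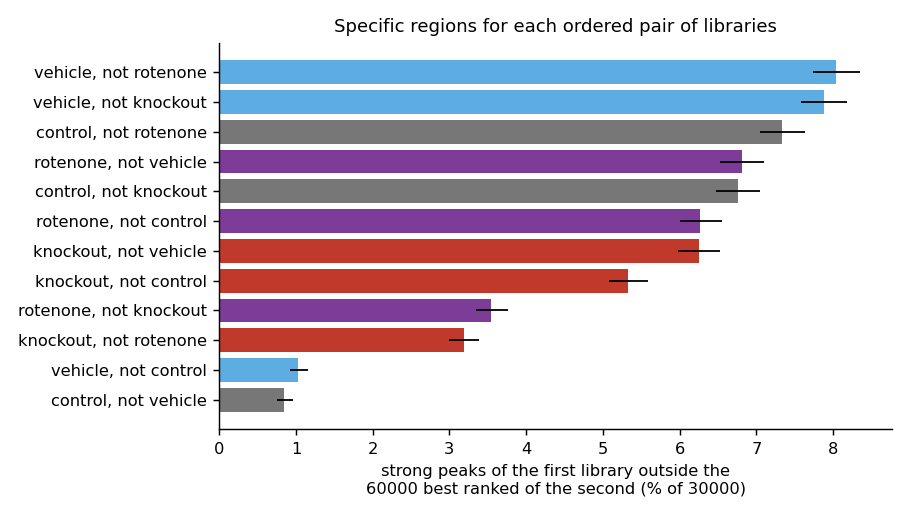
Share of strong peaks (% of 30000, horizontal axis) of the first-named library that overlap none of the 60000 best ranked peaks of the second, for all 12 ordered pairs of libraries, with 95% Wilson intervals as black lines. Control and vehicle stand closest (0.847% and 1.03%), knockout against rotenone comes next (3.18% and 3.54%), and every pair of a reference with a disturbed library lies at 5.33% or more.

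Most specific regions had a weaker peak in the other library. Of the knockout-specific regions, 544 (57.0%) overlapped a rotenone peak ranked between 60001 and 90000, 170 between 90001 and 120000 and 159 beyond that. The rotenone-specific regions gave 576 (54.2%), 153 and 254. Of the rotenone-specific regions named below, some lay close to the limit. The knockout peak ranked 60078 at Cd34, 60461 at Tgfbr3 and 60682 at Phgdh. Others lay far from it, with ranks of 241606 at Sod3 and 306580 at Tfam. No peak of any strength in the other library was found for 82 knockout-specific regions (0.273% of strong peaks) and 80 rotenone-specific regions (0.267%). The knockout list is longer, and when it was shortened to 347438 peaks the rotenone-specific number was 119. At the thresholds, the last strong knockout peak had a −log10 p of 16.0349 and the next 16.0346, and the corresponding rotenone values were 12.256 and 12.2553. The 60000th knockout peak had 8.95495 and the next 8.95483, against 7.4309 and 7.4308 in rotenone.

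The references divided each set into regions ranked high in the defining library alone and regions ranked low in the other disturbed library alone; here a region is "in" a library when it overlaps one of its 60000 best ranked peaks. Among knockout-specific regions, 469 (49.1%, interval 45.9% to 52.3%) were in both control and vehicle, and rotenone alone ranked them outside its 60000 best peaks. A rotenone peak of lower rank overlapped 452 of these 469, with a median fold of 3.27. Another 129 (13.5%) were in control alone, 75 (7.85%) in vehicle alone and 282 (29.5%, interval 26.7% to 32.5%) in neither. Among rotenone-specific regions, 437 (41.1%, interval 38.2% to 44.1%) were in both references, and the knockout alone ranked them outside its 60000 best. A knockout peak of lower rank overlapped 430 of these 437, with a median fold of 2.92. A further 105 (9.88%) were in control alone, 93 (8.75%) in vehicle alone and 428 (40.3%, interval 37.4% to 43.2%) in neither.

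Strong peaks in general were mostly shared. Of all strong knockout peaks 92.1% were in both references and 3.66% in neither, and of all strong rotenone peaks 91.3% and 4.37%. These shares depended on rank, and most specific regions ranked between 20001 and 30000. There, 9.02% of all strong knockout peaks and 10.85% of all strong rotenone peaks were in neither. Among specific regions of those ranks, 30.4% (knockout) and 41.7% (rotenone) were in neither. The larger share in neither reference among rotenone-specific regions depended on the settings. With 15000 strong peaks set against 30000, it was 32.5% for the knockout and 32.7% for rotenone, and with peaks of at least 200 bp 23.5% and 22.7%.

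**Figure D2:**
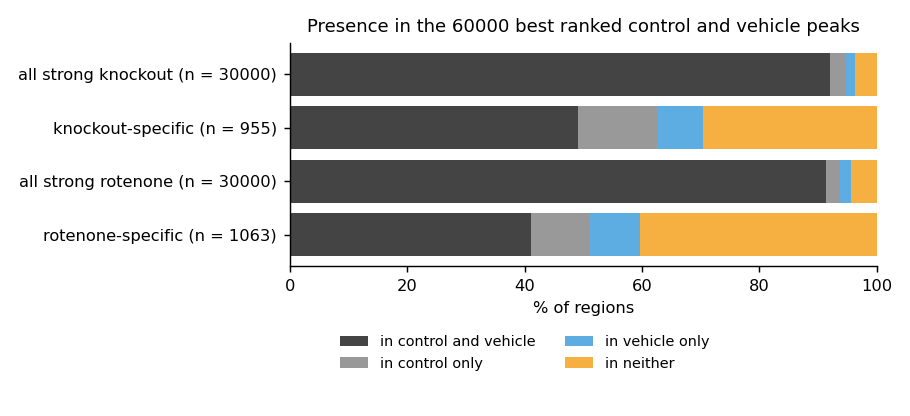
Presence of regions among the 60000 best ranked control and vehicle peaks, as % of each set (horizontal axis): all strong peaks and specific regions of the knockout and of rotenone. Regions in neither reference make up 29.5% of the knockout-specific and 40.3% of the rotenone-specific set, against 3.66% and 4.37% of all strong peaks. Among all strong peaks ranked 20001 to 30000, where most specific regions lie, 9.02% and 10.85% are in neither (not drawn).

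Regions ranked high in a single library, or missing from the 60000 best ranked of a single library, were also counted. Peaks strong in 1 library and outside the 60000 best ranked of the other 3 numbered 95 in control, 157 in vehicle, 282 in the knockout and 428 in rotenone. Regions strong in the other 3 libraries and missing from the knockout numbered 121 to 124, according to the library they were counted on. The numbers missing from rotenone were 119 to 126, those missing from control 23 to 24 and those missing from vehicle 28 to 30. The numbers missing from the knockout and from rotenone were thus close to each other, while more peaks were strong in rotenone alone than in the knockout alone. Both kinds of count were higher for the knockout and rotenone than for the references.

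Specific regions were narrow and stood low in the strong list. Their median width was 143 bp for the knockout and 110 bp for rotenone, against 293 bp and 277 bp for all strong peaks. Of the knockout-specific regions 76.3% were under 200 bp, and of the rotenone-specific regions 88.0%. Among strong peaks of at least 200 bp only 226 of 22418 knockout peaks (1.01%) and 128 of 20899 rotenone peaks (0.612%) were specific. By rank, 18, 101 and 836 knockout-specific regions came from the first, second and last 10000 strong peaks, and 8, 151 and 904 rotenone-specific regions. The median fold of knockout-specific regions was 4.43, and that of the rotenone peak over 873 of them was 3.24. For rotenone-specific regions the median was 4.91, and that of the knockout peak over 983 of them was 2.87. These folds follow from the rule and describe the members.

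**Figure D3:**
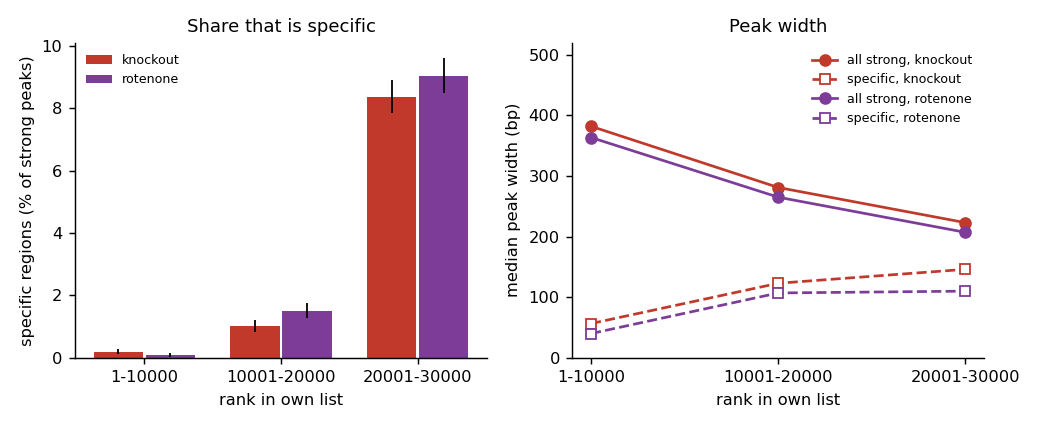
Left, specific regions as % of strong peaks by rank in their own list, with 95% Wilson intervals; right, median peak width in bp for all strong peaks (filled circles) and specific regions (open squares). Most specific regions lie between ranks 20001 and 30000 (8.36% of knockout and 9.04% of rotenone peaks there), and at each rank they are narrower than strong peaks in general.

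Regions specific to either library lay at gene ends less often than strong peaks in general. Only 92 knockout-specific regions (9.63%, interval 7.92% to 11.7%) and 118 rotenone-specific regions (11.1%, interval 9.35% to 13.1%) lay within 1000 bp of either end of a protein-coding gene, against 25.5% and 25.7% of all strong peaks. Inside genes lay 45.1% and 45.2%, against 51.7% and 51.9% of all strong peaks, and more than 50000 bp from a gene lay 20.4% and 22.0%, against 15.4% for each. None of these shares was matched for rank or width, while most specific regions were under 200 bp and ranked between 20001 and 30000. Whether rank or width accounts for the lower share at gene ends was not tested. Regions present in both references were at gene ends in 11.5% (knockout-specific) and 15.1% (rotenone-specific), and those in neither in 8.16% and 7.01%. Introns, exons and UTRs were not told apart, because the gene table gives gene bounds alone.

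No chromosome held a large part of either set. On the autosomes the knockout-specific share ran from 2.22% of strong peaks on chromosome 9 to 4.02% on chromosome 18. On chromosome X it was 3.16% (19 of 602) for the knockout and 5.40% (34 of 630, interval 3.89% to 7.45%) for rotenone, while the highest autosomal rotenone share was 4.55%, on chromosome 18. Within 50000 bp of another region of the same set lay 63 knockout-specific regions (6.60%) and 70 rotenone-specific regions (6.59%). The first 3.1 Mb of the chromosomes held 9 knockout-specific regions (0.942%) and 5 rotenone-specific regions (0.470%), against 0.33% and 0.297% of all strong peaks.

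Assigning each region to the gene spanning its midpoint, or to the nearest gene end, linked 888 genes (4.06% of 21887 protein-coding genes) to knockout-specific and 1003 genes (4.58%) to rotenone-specific regions. Of these, 109 had regions of both kinds, 12.3% of the former and 10.9% of the latter. Assignment by distance does not show which gene a region acts on. The 19 pathway lists, with 360 genes, took up 24 knockout-specific of 964 strong peaks (2.49%) and 32 rotenone-specific of 962 (3.33%), set against 3.18% and 3.54% of all strong peaks. The shares are near those of all strong peaks, so the lists as a whole did not stand apart. In all, 53 pathway genes (14.7%, against 8.14% of all protein-coding genes) had a specific region, 22 of the knockout kind alone, 30 of the rotenone kind alone and 1, Tgfb2, of both. These genes held more strong peaks per gene than average, 964 of the 30000 knockout peaks for 360 of the 21887 genes, so the share of genes reads higher than the share of peaks.

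**Figure D4:**
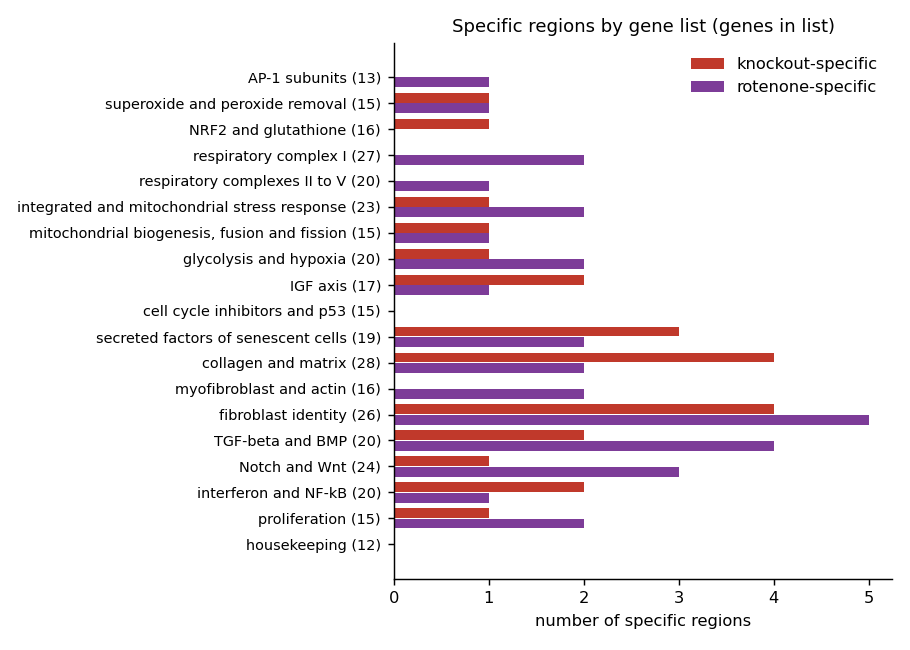
Number of knockout-specific and rotenone-specific regions (horizontal axis) assigned to the genes of each pathway list, with the number of genes in the list in parentheses. No list holds more than 5 regions of either kind, and cell cycle inhibitors and p53 and housekeeping genes hold none.

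Enzymes that remove superoxide and peroxide were represented once in each set, 1 of 24 strong knockout peaks (4.17%) and 1 of 27 strong rotenone peaks (3.70%). NRF2 and glutathione genes gave 1 of 31 (3.23%) and 0 of 29. All strong peaks gave 3.18% and 3.54%, and such small counts do not separate the lists from these rates. A knockout-specific region 33890 bp from Cat, the gene of catalase, at chr2:103518766-103519321, had a fold of 4.22 in the knockout and 3.43 in rotenone, and 4.77 in control and 4.76 in vehicle. A rotenone-specific region 24612 bp from Sod3, the extracellular superoxide dismutase, had 2.30 in the knockout and 4.84 in rotenone, and 3.94 in control and 3.29 in vehicle. Within Nfe2l2, the gene of the antioxidant transcription factor NRF2, a knockout-specific region at chr2:75702748-75702896 had 3.69 in the knockout and 3.04 in rotenone, and 3.93 in control and 4.68 in vehicle. The Cat and Nfe2l2 regions were missing from the top list of rotenone alone, while the Sod3 region was shared with control. Sod2 itself had no specific region of either kind.

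By assignment, the listed respiratory chain genes were linked to rotenone-specific regions only, 2 of 27 strong peaks of complex I genes and 1 of 24 of complexes II to V; knockout-specific regions were 0 of 24 for each list. Such small counts do not separate the lists from the rate of all strong peaks. A 68 bp region 41871 bp from Ndufa10, an accessory subunit of complex I, had a fold of 5.23 in rotenone and 3.02 in vehicle and no peak in control or the knockout. Far from Ndufa4, 221521 bp away, a region had 3.07 in the knockout and 4.95 in rotenone, and 2.81 in control and 3.81 in vehicle. Near Uqcrfs1, the Rieske protein of complex III, a 77 bp region had 4.73 in rotenone, 2.43 in the knockout and no peak in either reference. These 3 regions were in neither reference and lay 41871 bp or farther from the gene. A further rotenone-specific region, assigned to the neighbouring gene Fam126b and so not counted in the list, covered bases 145 to 17 before the start of Ndufb3, a complex I subunit, at chr1:58586252-58586380. It was in both references, with a fold of 3.04 in the knockout and 5.35 in rotenone, and 4.49 in control and 4.59 in vehicle, and was named after its values were seen.

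Genes of mitochondrial stress, biogenesis and quality control were found on both sides. The stress response list gave 1 knockout-specific of 30 strong peaks (3.33%) and 2 rotenone-specific of 31 (6.45%). The list of mitochondrial biogenesis, fusion and fission gave 1 of 46 (2.17%) and 1 of 45 (2.22%). All strong peaks gave 3.18% and 3.54%, and such small counts do not separate the lists from these rates. Within Eif2ak3, the gene of the PERK kinase, a knockout-specific region of 387 bp had a fold of 4.27 in the knockout and 3.41 in rotenone, and 5.81 in control and 6.85 in vehicle. This region was in both references, and the rotenone peak over it was outside the 60000 best ranked. On the rotenone side the nearest to a gene end was at Tfam, the transcription factor of mitochondrial DNA, 735 bp from the gene end and inside the gene at chr10:71237492-71237593. The fold there was 2.22 in the knockout and 5.96 in rotenone, and 7.23 in control and 2.94 in vehicle. The control and rotenone peaks were among the 60000 best ranked and the knockout and vehicle peaks were not, a division that neither Sod2 nor rotenone follows. Near Phgdh, of serine synthesis, a 60 bp rotenone-specific region had 3.19 in the knockout and 5.02 in rotenone, and 5.01 in control and 4.99 in vehicle. A rotenone-specific region 67706 bp from Hspa9, the mitochondrial chaperone mortalin, was shared with control alone.

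Glycolysis and hypoxia genes gave 1 knockout-specific of 64 strong peaks (1.56%) and 2 rotenone-specific of 62 (3.23%). IGF axis genes gave 2 of 75 (2.67%) and 1 of 73 (1.37%), against 3.18% and 3.54% of all strong peaks. Most of these few regions were in both references, the commonest class among all knockout-specific (49.1%) and rotenone-specific (41.1%) regions too. A knockout-specific region 9102 bp from Pfkl, liver-type phosphofructokinase, had a fold of 4.42 in the knockout and 3.43 in rotenone, and 6.92 in control and 7.61 in vehicle. A rotenone-specific region 40146 bp from Epas1, the gene of HIF-2α, had 2.70 in the knockout and 5.29 in rotenone, and 5.19 in control and 5.0 in vehicle. Within Hk1, hexokinase 1, a 62 bp rotenone-specific region had 2.27 in the knockout and 4.95 in rotenone, and 2.37 in control and 3.56 in vehicle. Of these only the Hk1 region was in neither reference. The IGF axis, 17 genes, held knockout-specific regions at the start of Foxo3, printed above, and inside Igf1r, the receptor of IGF-1, where the fold was 4.29 in the knockout and 2.64 in rotenone, and 6.09 in control and 4.32 in vehicle. Its rotenone-specific region lay inside Grb14, an adaptor that inhibits insulin receptor signalling, with 2.83 in the knockout and 4.88 in rotenone, and 5.28 in control and 5.02 in vehicle. Igf1 had no specific region.

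Secreted factors linked to senescence gave 3 knockout-specific of 47 strong peaks (6.38%) and 2 rotenone-specific of 53 (3.77%). All strong peaks gave 3.18% and 3.54%, and such small counts do not separate the list from these rates. At Hgf, hepatocyte growth factor, a knockout-specific region 278 bp from a gene end, at chr5:16553773-16553941, had a fold of 4.29 in the knockout and 3.14 in rotenone, and 3.88 in control and 5.07 in vehicle. Near Ccl2, a chemokine that attracts monocytes, a region had 4.29 in the knockout and 2.90 in rotenone, and 4.99 in control and 6.09 in vehicle. The Hgf and Ccl2 regions were in both references, and the last, near the related chemokine gene Ccl8, was in control alone. The rotenone-specific regions lay near Mmp9, a gelatinase, where a 69 bp peak with a fold of 5.16 in rotenone overlapped no peak in any other library, and near Cxcl12, a stromal chemokine, where the fold was 2.99 in the knockout and 5.42 in rotenone, and 3.02 in control and 3.64 in vehicle.

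Matrix genes gave 4 knockout-specific of 115 strong peaks (3.48%) and 2 rotenone-specific of 106 (1.89%), against 3.18% and 3.54% of all strong peaks. Tnc, tenascin C, had knockout-specific regions inside the gene and 929 bp outside it; the first had a fold of 4.52 in the knockout and 3.05 in rotenone, and 5.17 in control and 5.12 in vehicle. Lox, lysyl oxidase that crosslinks collagen and elastin, had a region 5604 bp away with 5.10 in the knockout and 3.48 in rotenone, and 2.75 in control and 3.00 in vehicle. Near Eln, elastin, a 92 bp peak with a fold of 4.57 in the knockout overlapped no peak in any other library. The Lox and Eln regions were thus specific to the knockout against all 3 other libraries, whereas both Tnc regions were in both references. The rotenone-specific regions were at the start of Col5a1, a fibrillar collagen chain, and inside Col4a1, a basement membrane collagen. At Col5a1, chr2:27886226-27886336, the fold was 2.82 in the knockout and 5.23 in rotenone, and 4.06 in control and 4.82 in vehicle. At Col4a1 it was 3.02 in the knockout and 5.86 in rotenone, and 5.19 in control and 5.55 in vehicle. At both collagens only the knockout peak fell outside the 60000 best ranked of its list. Myofibroblast and actin genes gave 0 knockout-specific of 43 strong peaks and 2 rotenone-specific of 39, next to 3.18% and 3.54% of all strong peaks. The 2 regions were near Ccn2, a matricellular protein, and Actn1, an actin crosslinker.

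Fibroblast identity genes held 4 knockout-specific of 95 strong peaks (4.21%) and 5 rotenone-specific of 100 (5.0%), near the 3.18% and 3.54% of all strong peaks. Inside Prdm1, the gene of the BLIMP1 repressor found in upper dermal fibroblasts, a 27 bp knockout-specific peak had a fold of 8.57 in the knockout, 7.16 in vehicle and 4.36 in control, and there was no peak in rotenone. Near Runx1 a region had 4.96 in the knockout and 3.48 in rotenone, and 2.76 in control and 2.50 in vehicle, in neither reference. Runx2, a related transcription factor known from bone, instead held 2 rotenone-specific regions inside the gene. The first, at chr17:44569213-44569367, had 2.81 in the knockout and 5.27 in rotenone, and 4.71 in control and 5.90 in vehicle, and the second 2.83, 5.15, 4.95 and 5.41 in the same order. Both Runx2 regions were in every top list except that of the knockout. Inside Tbx15, a dermal patterning factor, a region had 2.93 in the knockout and 5.29 in rotenone, and 3.91 in control and 4.21 in vehicle. Cd34 and Lrig1 gave the remaining rotenone-specific regions, Dlk1 and Lrig3 the remaining knockout-specific ones. The Lrig1, Dlk1 and Lrig3 regions lay 105549, 134828 and 277755 bp from the gene.

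TGF-beta ligands, receptors and SMAD proteins gave 2 knockout-specific of 87 strong peaks (2.30%) and 4 rotenone-specific of 80 (5.0%). The rates of all strong peaks were 3.18% and 3.54%, from which such small counts do not separate the list. Tgfb2, a ligand, was the only pathway gene with both kinds. Its knockout-specific region, 36880 bp away, had a fold of 4.32 in the knockout and 3.38 in rotenone, and 3.26 in control and 3.38 in vehicle. The rotenone-specific region, 147114 bp away, had 2.81 in the knockout and 6.21 in rotenone, and 7.0 in control and 6.69 in vehicle. The first was in neither reference and the second in both. A rotenone-specific region 168089 bp from Tgfbr2, the type II receptor, had 2.79 in the knockout and 4.75 in rotenone, and 4.65 in control and 6.39 in vehicle. Inside Tgfbr3, the coreceptor betaglycan, a region had 3.19 in the knockout and 4.94 in rotenone, and 3.69 in control and 2.62 in vehicle. Another rotenone-specific region, 60370 bp from Smad3, a receptor-activated transducer, was in both references. Smad4, the common partner SMAD, held a knockout-specific region with 4.88 in the knockout and 2.96 in rotenone, and 4.05 in control and 3.51 in vehicle, which it shared with control alone.

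Notch and Wnt genes gave 1 knockout-specific region of 86 strong peaks (1.16%) and 3 rotenone-specific of 93 (3.23%), against 3.18% and 3.54% of all strong peaks. The knockout-specific region, 60930 bp from Sfrp2, a secreted Wnt modulator, had a fold of 4.47 in the knockout and 3.07 in rotenone, and 4.14 in control and 4.60 in vehicle. A rotenone-specific region 148235 bp from Wnt5a, a non-canonical Wnt ligand, had 2.47 in the knockout and 4.74 in rotenone, and 6.01 in control and 6.44 in vehicle. Near Dll1, a Notch ligand, the values were 3.05 in the knockout and 6.10 in rotenone, and 3.57 in control and 2.88 in vehicle. The Sfrp2 and Wnt5a regions were in both references and the Dll1 region in neither. Inside Tcf7l2, a nuclear effector of Wnt signalling, a 63 bp rotenone peak with a fold of 4.68 overlapped no peak in any other library.

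The AP-1 genes, which encode JUN and FOS family subunits such as JunB, had 34 strong peaks in the knockout and 34 in rotenone. Of these, 0 were knockout-specific and 1 (2.94%) was rotenone-specific, against 3.18% and 3.54% of all strong peaks. That region lay 6886 bp from Fosb, at chr7:19316892-19317116, with a fold of 3.13 in the knockout and 4.57 in rotenone, and 6.10 in control and 5.36 in vehicle, and only the knockout peak was outside the 60000 best ranked. Junb, Jun, Jund, Fos, Fosl1 and Fosl2 had no specific region of either kind. The best ranked peak of Junb had a fold of 4.04 in the knockout and 4.18 in rotenone, and 4.16 in control and 4.47 in vehicle. The cell cycle inhibitors Cdkn1a and Cdkn2a had none either; Cdkn2a had 2 peaks among the 60000 best ranked in every library, which were strong in control and vehicle and not in the knockout or rotenone.

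Interferon and NF-kB genes gave 2 knockout-specific of 28 strong peaks (7.14%) and 1 rotenone-specific of 25 (4%). Proliferation genes gave 1 of 59 (1.69%) and 2 of 59 (3.39%). All strong peaks gave 3.18% and 3.54%, and such small counts do not separate the lists from these rates. Among inflammation genes, knockout-specific regions inside Irf7, an interferon regulatory factor, and Rel, an NF-kB subunit, were both in vehicle alone. At Irf7 the fold was 4.39 in the knockout and 3.3 in rotenone, and 3.55 in control and 4.63 in vehicle. At Rel it was 4.43 in the knockout and 3.48 in rotenone, and 2.78 in control and 4.51 in vehicle. A rotenone-specific region 749 bp from Rela, the p65 subunit, was in both references instead. Of proliferation genes, Mcm2, part of the replicative helicase, had a 62 bp knockout-specific region 867 bp away, with 5.14 in the knockout and 3.29 in rotenone, and 2.71 in control and 3.57 in vehicle. A rotenone-specific region of 359 bp lay 775 bp from Mycn, a MYC family gene, with 3.08 in the knockout and 4.95 in rotenone, and 5.92 in control and 6.14 in vehicle. The Mcm2 region was in neither reference, the Mycn region in both, and a region 399219 bp from Myc was in neither.

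**Figure D5:**
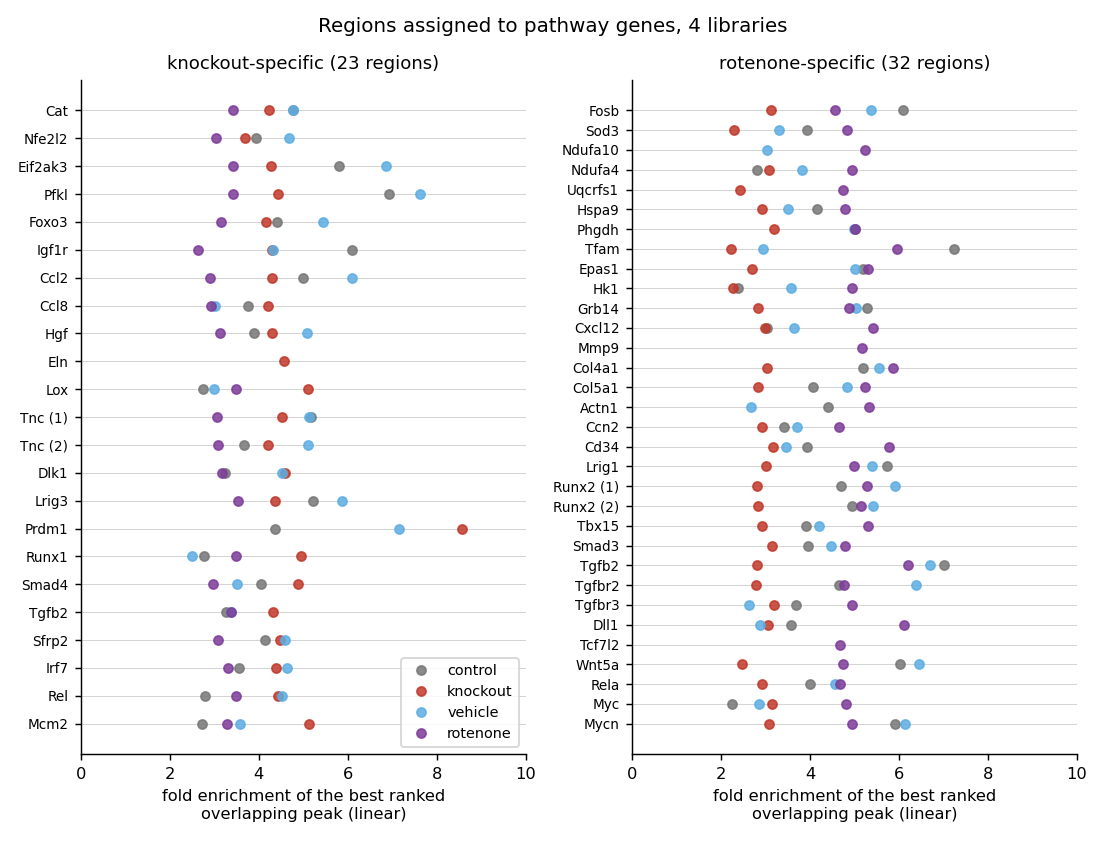
Fold enrichment (linear, horizontal axis) of the best ranked overlapping peak in each of the 4 libraries for 23 of the 24 knockout-specific (left) and all 32 rotenone-specific (right) regions assigned to pathway genes; a missing point means no peak. Fold scales differ between lists (median 5.49 to 7.13 for strong peaks); control and vehicle points lie to the right of the defining library at Pfkl and Wnt5a, and the defining library lies to the right of the other 3 at Lox and Dll1.

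The best ranked members at large were of varied kinds. The 2 best ranked knockout-specific regions, both 80 bp wide, lay in Nedd4l, a ubiquitin ligase gene, and near Nfasc. The Nedd4l region had a fold of 3.67 in the knockout and 2.52 in control, and the Nfasc region 5.35 and 3.42. Neither had a peak in vehicle or rotenone. Their −log10 p in the knockout was 3625.72 and 3567.29, against 16.0349 for the last strong knockout peak. No peaks were removed for extreme signal. A 67 bp region 87766 bp from Rab39b had a fold of 7.11 in the knockout, 1.92 in rotenone, 4.09 in control and 1.77 in vehicle. A 61 bp region in Fhad1 had 15.3 in the knockout, 3.42 in rotenone, 15.0 in control and 4.74 in vehicle. The Nedd4l, Nfasc and Rab39b regions were in control alone and the Fhad1 region in both references. Others of high rank were short peaks of low fold, such as a 17 bp peak in Gamt, of creatine synthesis, with a fold of 1.15, and 22 bp and 35 bp peaks in Sfi1 with 1.20 and 1.21. In all, 15 knockout-specific regions (1.57%) had a fold under 2. At Msantd4 an 18 bp region had a fold of 1.49 in the knockout, 15.3 in control and 15.0 in vehicle, and no peak in rotenone. The best ranked rotenone-specific region, 38 bp long and 527 bp from a gene end of Skint11, had 2.47 in the knockout and 10.5 in rotenone, and 3.71 in control and 3.60 in vehicle. A 34 bp region in Tsc22d4 had 9.89 in rotenone, 2.93 in the knockout and no peak in the references. These peaks of under 40 bp ranked far above most members, whose ranks were mostly beyond 20000.

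Regions with the most members per gene were found at Vmn1r238 and Alkbh8. Vmn1r238, a vomeronasal receptor gene, was the nearest gene to 4 knockout-specific regions within the first 3.1 Mb of chromosome 18. Alkbh8, of tRNA modification, was the nearest gene to 3 knockout-specific and 4 rotenone-specific regions at the start of chromosome 9, all between 258591 and 329408 bp from the gene, with folds in the defining library from 1.23 to 4.60. Spred2, an inhibitor of MAP kinase signalling, had 3 rotenone-specific regions between 31746 and 204179 bp from the gene, with folds in rotenone of 5.53, 5.08 and 4.95. Of these, 1 was in vehicle alone, 1 in control alone and 1 in neither. Apbb2 and Xylt1 had 3 knockout-specific regions each, the latter encoding an enzyme that starts proteoglycan chains. The Xylt1 regions lay between 29988 and 152347 bp from the gene. The Apbb2 regions were spread over 3 classes, in both references, in vehicle alone and in neither.

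Members present in both references had a median width of 154 bp (knockout-specific) and 129 bp (rotenone-specific), against 126 bp and 87.5 bp for those in neither. At Ctsa, the lysosomal protective protein, a knockout-specific region at a gene end had a fold of 5.61 in the knockout and 3.1 in rotenone, and 4.20 in control and 4.52 in vehicle. Inside Mbnl2, a splicing factor, a 250 bp region had 5.21 in the knockout and 3.02 in rotenone, and 5.33 in control and 5.85 in vehicle. Among rotenone-specific regions, 1 at the gene ends of Mettl15 and Kif18a, a mitochondrial rRNA methyltransferase and a mitotic kinesin, had 2.90 in the knockout and 6.15 in rotenone, and 9.49 in control and 9.41 in vehicle. Inside Tafa2 a region had 3.07 in the knockout and 5.89 in rotenone, and 9.20 in control and 9.52 in vehicle. Near Ccnb1ip1 the values were 2.86 in the knockout and 6.38 in rotenone, and 8.90 in control and 6.82 in vehicle. The last 3 regions were among the 60000 best ranked in rotenone, control and vehicle and outside them in the knockout.

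Some members overlapped no peak of any strength in the other libraries, and those named here were narrow or of low fold. For rotenone these included a 36 bp peak 46344 bp from Bhlhe22, a neural transcription factor gene, with a fold of 7.85, a 36 bp peak in Plxdc2 with 6.22 and an 88 bp peak in Hhat, a Hedgehog acyltransferase, with 5.97. For the knockout they included a 68 bp peak in Angptl2 with a fold of 1.75. Where no peak of any strength existed in the other disturbed library, 43 of 82 knockout-specific regions (52.4%) and 64 of 80 rotenone-specific regions (80.0%) were also in neither reference. Regions shared with 1 reference alone also occurred: in Impg2 a rotenone-specific region had 6.88 in vehicle, 7.66 in rotenone, 2.03 in the knockout and no peak in control, and 2 regions near Naif1 were in vehicle alone.

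Markers of other cell types in skin, 70 genes in 8 lists, had 3 knockout-specific of 96 strong peaks (3.13%) and 2 rotenone-specific of 98 (2.04%), against 3.18% and 3.54% of all strong peaks. The knockout-specific regions were assigned to Trp63, of keratinocytes, Cdh5, of endothelium, and Ptprc, of leukocytes, and the rotenone-specific ones to Spi1, of myeloid cells, and Bcl11b, of T cells. At Spi1 the region, 427 bp from a gene end, had a fold of 2.76 in the knockout and 4.56 in rotenone, and 4.33 in control and 3.60 in vehicle. No marker list held more than 1 region of either kind, and the share of other cells in each library was not tested.

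The promoter table, covering 250 bases before and 50 after the start, held 48 knockout-specific and 45 rotenone-specific promoters, of 44 and 43 genes, among 32851. The GC box GGGCGG, bound by SP factors, occurred on either strand in 22 of 48 (45.8%, interval 32.6% to 59.7%) and 22 of 45 (48.9%, interval 35.0% to 63.0%). It occurred in 67.8% and 68.1% of promoters with a strong knockout or rotenone peak and in 35.7% of all promoters. The CCAAT box was in 29.2% and 26.7% of specific promoters, against 45.7% of promoters with a strong peak in either library and 37.4% of all. Both shares in the specific sets lay below those of promoters with strong peaks, which were outside the intervals, while median CpG counts were 20.5 and 20 against 22. Neighbouring promoters can share a region: the 48 and 45 promoters came from 38 and 40 regions.

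The AP-1 site TGANTCA was in 6.25% and 6.67% of specific promoters, against 5.28% and 5.22% of promoters with a strong peak and 7.81% of all promoters. The antioxidant response element core TGACNNNGC was in 12.5% and 13.3%, against 15.2% of promoters with a strong peak in either library and 12.4% of all. The intervals of the specific sets, 2.15% to 16.8% and 2.29% to 17.9% for AP-1 and 5.86% to 24.7% and 6.26% to 26.2% for the antioxidant element, held all these shares. The cAMP response element TGACGTCA was in 0 of 48 (interval up to 7.41%) and 1 of 45 promoters, against 3.71% and 3.76% of promoters with a strong peak and 1.79% of all; the single match is that of Nubpl, inside the capitals printed above. All motifs were searched on both strands, and TGACNNNGC can overlap TGACGTCA. Of the promoters printed above, that of Foxo3 held 5 GC boxes and that of Gstm2 held 2 CCAAT boxes. Within 1000 bp of a specific region lay a single miRNA gene, Mir5110, next to a rotenone-specific region.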

How the data were processed

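ATAC-seq libraries of mouse dermal fibroblasts were analysed, 1 each of Sod2+/+ control, Sod2-/-, vehicle and rotenone. Bowtie2, bedtools, MACS2, HOMER and the build mm10 are named per the submitters' processing notes; for versions, settings, read filters and a shift for Tn5 insertion the entry is "not given in the sources used here". Per library the authors deposited 1 headerless peak list; its fold enrichment (a ratio), −log10 p, −log10 q and score are the authors' values for each peak, read in the column order of MACS2, and the score was not used. Depth is unknown.

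Starts were made 1-based. Peaks were ranked by the −log10 p deposited by the authors, with ties by fold. Overlap was at least 1 bp. Genes came from RefSeq GRCm38.p6, the assembly behind mm10 (21887 protein-coding genes); because the promoter table covers 17492 of them, distance to either gene end was used in place of distance to the start. Each region went to the gene spanning its midpoint or the nearest gene end, and its fold in each library is that of the best ranked overlapping peak. Of 433 gene list members 432 matched, 3 of them by an older symbol; Trac did not. Members and lists were chosen with earlier results of these data known. Named genes are, per direction and without predicted genes, the 10 with most regions, those of the 5 best ranked regions at gene ends, of the 4 best ranked per reference class and of the 5 best ranked without a peak in the other library, up to 3 per pathway list, and Sod2, Junb, Jun, Jund, Fos, Fosb, Fosl1, Fosl2, Igf1, Cdkn2a and Cdkn1a; the text gives a selection of these. The region of 1 pathway gene is counted but not reported here. Ndufb3, Fam126b, Ngrn, Ciao3, Nubpl, Psmb5, Gstm2 and the marker genes were named after their values were seen.

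Intervals are 95% Wilson intervals for counting error alone. The overlap code was run on planted regions: 200 of 200 per direction came back. These were deposited weak peaks without a nearby peak in the other list, raised in rank. They met the rule by construction, so the run checks the code alone. Python 3.11.15 was used with pandas 2.3.3, numpy 2.4.6, matplotlib 3.10.9 and scipy 1.17.1. Alternatives were shorter and longer lists, any partner peak, ranking by fold, 50% coverage, autosomes, peaks of at least 200 bp, a distance of 50000 bp to genes, and 2500 bp around gene ends. Added after seeing the data were a partner list of equal length, peaks of fold 2 or more, and leaving out the first 3.1 Mb of chromosomes.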

Additional observations from a re-analysis of the deposited data

Results flagged for a closer look

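Of the knockout-specific regions, 75 (7.85%) were also among the 60000 best ranked vehicle peaks but not among those of control or rotenone. Of all strong knockout peaks, 502 (1.67%) were in vehicle and not in control. The 75 regions thus ranked high in the knockout and vehicle and lower or not at all in the other 2, a division that neither Sod2 genotype nor rotenone follows. A control peak of lower rank overlapped 74 of the 75, with a median fold of 3.40. Irf7 and Rel, described above, are examples. Of the rotenone-specific regions, 105 (9.88%) were also among the best ranked control peaks but not among those of vehicle or the knockout, Tfam among them. Of all strong rotenone peaks, 730 (2.43%) were in control and not in vehicle. A vehicle peak of lower rank overlapped 104 of the 105 regions, with a median fold of 3.51. In both cases the 2 Sod2+/+ references without rotenone fell on opposite sides of the rank limit. With 1 library per group the difference was not tested.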

How the results depend on the processing

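No paired analysis was possible because each group has 1 library, and leaving out a library was not possible for the same reason. Numbers are given for the knockout first and rotenone second. With 15000 strong against 30000 partner peaks there were 240 and 312 specific regions, 32.5% and 32.7% in neither reference, 45.4% of the knockout-specific ones in both, and 15.4% and 15.7% at gene ends. With 60000 against 120000 these were 6698 and 7562 regions, 46.4% and 57.8% in neither, 35.1% and 26.6% in both, and 6.36% and 6.43% at gene ends. Requiring no partner peak of any strength left 82 and 80 regions, 52.4% and 80.0% in neither, 20.7% and 8.75% in both, and 5% of the rotenone-specific ones at gene ends. Where a partner had to cover 50% of the peak, 24.9% and 35.7% were in neither, 54.5% and 45.9% in both, and 14.5% and 18.4% at gene ends. Among peaks of at least 200 bp there were 226 and 128 regions, 23.5% and 22.7% in neither, 63.7% and 61.7% in both, and 17.2% of the rotenone-specific ones at gene ends. A gene end window of 2500 bp took in 14.7% and 16.4%. With partner lists of 347438 peaks, chosen after seeing the data, there were 82 and 119 regions, 52.4% and 74.8% in neither, 20.7% and 12.6% in both, and 5.04% of the rotenone-specific ones at gene ends. Counts and shares moved within these limits; the cause was not tested. Ranking by fold, autosomes alone, and leaving out peaks of fold under 2 or the first 3.1 Mb (both added later) moved no value by more than its interval or 1.5 times. Of the 53 pathway genes with a specific region, 42 were counted when regions over 50000 bp from the gene were left out. The unknown depth limits every count, because a missing peak may be a peak too weak to be called.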
